A study of Homo sapiens with 6 samples.

Results

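Histone lysine and arginine methylation enzymes were taken by gene symbol from RNA-seq of MDA-MB-231 cells with and without knockdown of PELP1 (PELP1-KD). The KDM, SETD, SMYD, PRMT and KMT2 families were matched by name, and 12 further symbols (CARM1, EZH1, EZH2, EHMT1, EHMT2, SUV39H1, SUV39H2, DOT1L, NSD1, WDR5, RBBP5 and ASH2L) were added. This gave 50 genes of the 23228 listed. No KMT2 symbol was matched, because the count tables carry the older names MLL and MLL2 to MLL5, which are given separately among related genes. After the filter on low counts 47 of the 50 were tested, among 12796 genes in all. PRMT8 and SMYD1 had no count in any of the 6 replicates, and a gene with 3 counts would lie at 0.127 to 0.177 CPM (counts scaled to a common library size), a limit that covers counting error only. KDM5D is Y-linked, was not tested, and its values are not given.

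MDA-MB-231 is a human triple-negative breast cancer (TNBC) line. The comparison asked how reducing PELP1 alters gene expression in these cells. Control cells carried a non-targeted shRNA and PELP1-KD cells a single shRNA sequence against PELP1, both as stable lentiviral lines under puromycin selection, grown in RPMI medium with 10% serum, with 3 replicates in each group. With a single shRNA in each group, an effect of lower PELP1 cannot be told apart from one of the shRNA or the line. The labels do not say that replicates came from separate cultures or infections, so p-values measure the spread between these samples, which may be technical.

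Histone methylation is written by methyltransferases and removed by demethylases, and the same mark on different residues accompanies opposite states of a gene. Methylation of H3K4, H3K36 and H3K79 is found at active genes, whereas H3K9 and H3K27 methylation accompany silencing. PELP1 is a scaffold of nuclear receptors that has been found in complexes with the demethylase KDM1A, with H3K4 methyltransferase complexes containing WDR5, RBBP5 and ASH2L, and with the arginine methyltransferase PRMT6.

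Reads counted on genes ranged from 17304864 to 23132102 per replicate, and a further 32.5% to 32.9% of the alignments tallied in each table were not unique and placed on no gene. PELP1 itself was at 57.2, 56.1 and 60.2 CPM in control cells and at 28.6, 29.9 and 30.3 CPM in PELP1-KD cells. It fell by 48.8% (log2FC -0.97, SE 0.055, adjusted p = 1.48e-11, edgeR quasi-likelihood test). The exact permutation test on CPM gave p = 0.1, the smallest value that 3 against 3 replicates allow. The 5 markers expected to be high in MDA-MB-231 (VIM, EGFR, CD44, CAV1 and AXL) summed to 5652 to 5733 CPM in control and 4726 to 4764 CPM in PELP1-KD cells, and all 5 were lower. Of the 6 expected to be low, ESR1, PGR and CDH1 were below 1 CPM throughout, GATA3 and EPCAM were between 6.42 and 11.2 CPM, and ERBB2 was at 109 to 128 CPM. Of 10 markers of other cell types, 8 were below 1 CPM in every replicate, among them PTPRC at 0 throughout. Their sum was 20.3 to 24.9 CPM in control and 63.2 to 68.7 CPM in PELP1-KD cells, mostly from COL1A1 and PDGFRB, and the part of this shift in the results below was not tested. In bulk RNA, fewer cells of a type and less RNA per cell cannot be told apart.

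Many of these enzymes differed by small amounts between PELP1-KD and control cells, in both directions. Of the 47 tested, 9 were lower and 11 higher at an adjusted p below 0.05, 20 in all (42.6%), where 46.9% of all tested genes passed. By direction, 19.1% of the enzymes were lower against 24.2% of all genes, and 23.4% were higher against 22.7% of all genes. The shares of the enzymes were therefore near the background. No enzyme passed with a log2FC beyond 0.5 or beyond 1, thresholds that 11.2% and 3.24% of all tested genes passed. The log2FC of the 47 ran from -0.33 to 0.39 with a median of 0.00, and the median absolute log2FC was 0.10, against 0.17 over all tested genes. The enzymes were also more highly counted, with a median of 54.9 CPM against 34.1 CPM. Without overlap between the control and PELP1-KD replicates were 28 of the 47 (59.6%), where 55.0% of all genes did not overlap. Scaling by library totals alone gave 7 lower and 13 higher enzymes, and 2418 lower and 3817 higher genes in place of 3103 and 2904.

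**Figure D1:**
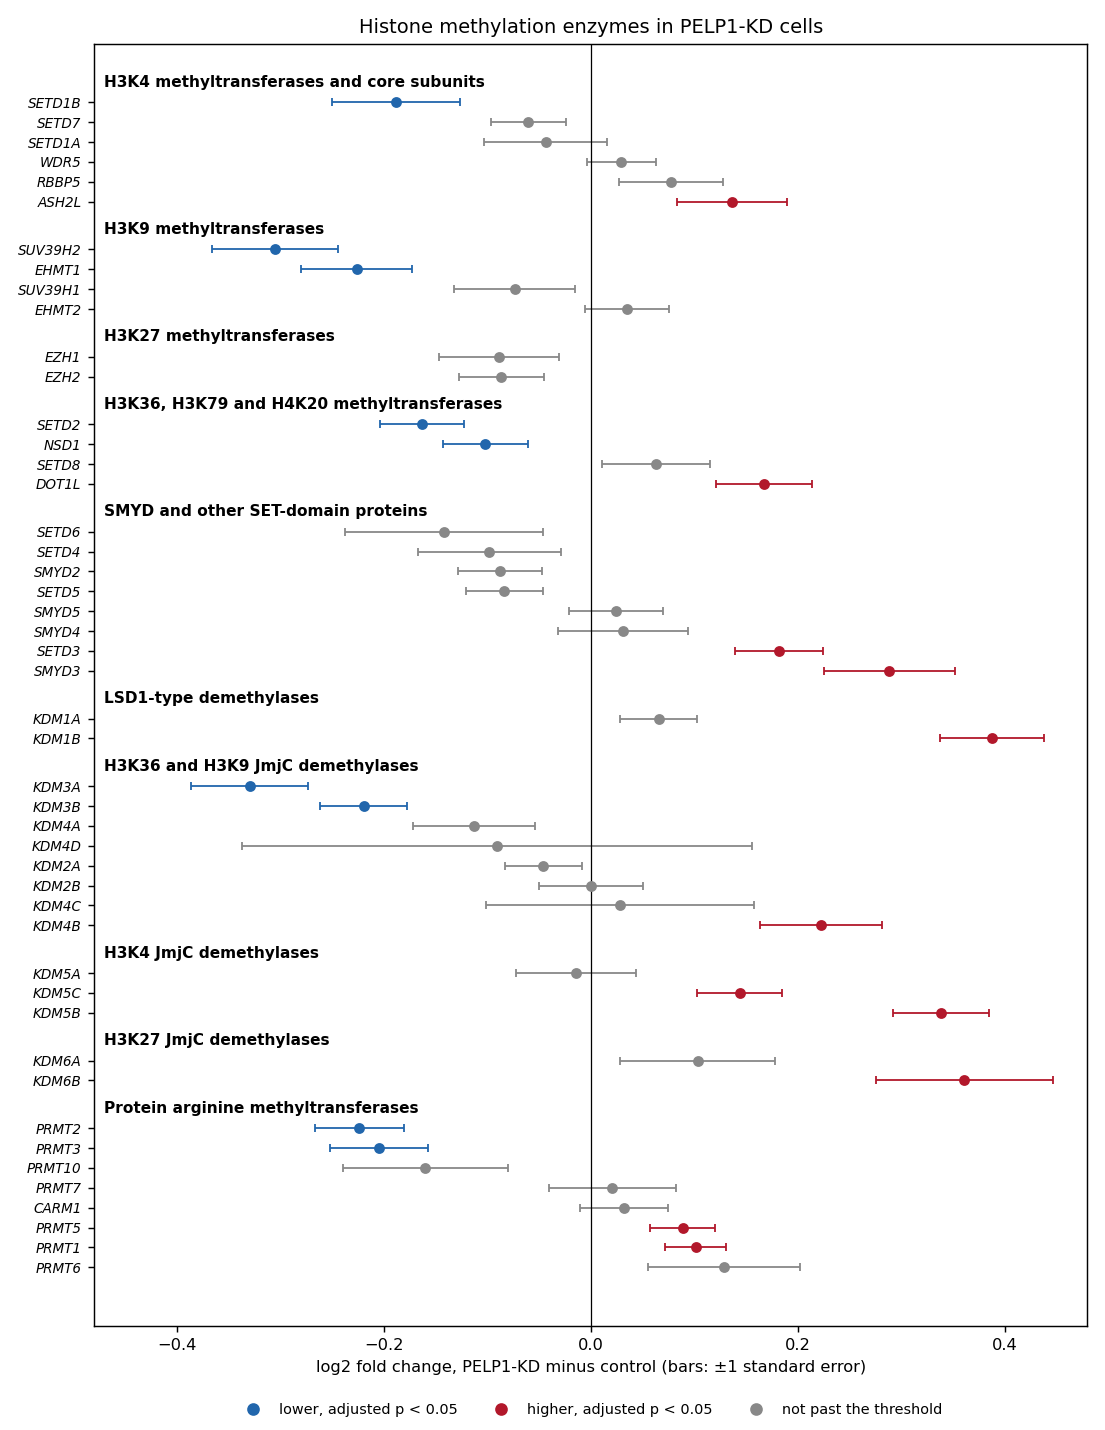
Log2 fold change of PELP1-KD against control cells (x axis) for the 47 tested histone methylation enzymes, grouped by role on the y axis; points are edgeR estimates with bars of 1 SE and colour gives the call at an adjusted p below 0.05. The 9 lower and 11 higher enzymes lie between -0.33 and 0.39.

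Of the tested H3K4 demethylases, 2 of 3 KDM5 genes and 1 of 2 LSD1-type genes rose, and none was called lower. Over all tested genes 22.7% were higher and 24.2% lower, and counts by role were not tested against these shares. KDM1B, the flavin-dependent paralog of KDM1A (LSD1), had the lowest p of all the enzymes. Its levels were 49.0, 47.3 and 44.9 CPM in control and 62.4, 60.8 and 61.6 CPM in PELP1-KD cells. All PELP1-KD replicates were above all controls, and KDM1B rose by 30.8% (log2FC 0.39, SE 0.051, adjusted p = 2.61e-06). KDM1A, which demethylates mono- and dimethylated H3K4 within the CoREST complex, was at 149, 152 and 144 CPM in control and 156, 156 and 154 CPM in PELP1-KD cells. Its replicates did not overlap but it did not pass the test (log2FC 0.07, SE 0.037, adjusted p = 0.152). With library totals in place of TMM scaling KDM1A passed (log2FC 0.11, adjusted p = 0.0128). KDM5B, which removes trimethylation from H3K4, was at 56.1, 55.1 and 55.2 CPM in control and 69.5, 70.8 and 70.1 CPM in PELP1-KD cells. The groups lay far apart relative to their spread (log2FC 0.34, SE 0.046, adjusted p = 4.39e-06). The X-linked KDM5C, of the same activity, was at 95.7, 98.0 and 97.6 CPM in control and 108, 110.1 and 104 CPM in PELP1-KD cells. It rose by 10.5% without overlap (log2FC 0.14, SE 0.041, adjusted p = 0.00663), whereas KDM5A had a log2FC of -0.01 (adjusted p = 0.86).

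The promoters of KDM1B and KDM3A are shown because these genes had the lowest p of the enzymes that rose and of those that fell. They were searched for the letters of an E2F site. Both are 250 bases directly upstream of the annotated start, from RefSeq on GRCh38.p14, with TTTCCCGC in capitals where it occurred.
KDM1B, chr6:18155172-18155421, strand +: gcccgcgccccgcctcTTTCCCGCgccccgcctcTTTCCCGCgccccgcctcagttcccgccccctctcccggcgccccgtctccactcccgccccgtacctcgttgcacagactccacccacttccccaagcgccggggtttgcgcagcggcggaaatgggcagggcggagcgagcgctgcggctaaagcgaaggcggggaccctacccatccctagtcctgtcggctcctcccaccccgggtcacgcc
KDM3A, chr2:86441121-86441370, strand +: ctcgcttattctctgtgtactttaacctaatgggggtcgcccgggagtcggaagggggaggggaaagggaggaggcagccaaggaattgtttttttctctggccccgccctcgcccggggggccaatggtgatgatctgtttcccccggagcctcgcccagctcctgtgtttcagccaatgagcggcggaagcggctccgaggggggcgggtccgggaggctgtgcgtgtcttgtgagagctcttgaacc
The KDM1B sequence held TTTCCCGC in 2 copies, beginning 234 and 216 bases upstream of the start, and the KDM3A sequence held none. Searched on both strands, TTTGGCGC or TTTCCCGC occurred in 1 of the 44 enzyme promoters with an entry (2.27%), in 1.96% of 27305 promoters and in 3.18% of the 8933 promoters of tested genes.

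Of the H3K27 demethylases, which oppose PRC2, 1 of 2 rose and none was called lower, where 22.7% of all tested genes were higher. KDM6B was at 11.2, 11.1 and 11.7 CPM in control and 15.7, 14.1 and 14 CPM in PELP1-KD cells. It rose by 28.4% with no overlap (log2FC 0.36, SE 0.086, adjusted p = 0.00168). KDM6A (UTX), the X-linked member, was at 31.9, 28.0 and 31.8 CPM in control and 35.1, 34.3 and 28.9 CPM in PELP1-KD cells. The groups overlapped and the test was not passed (log2FC 0.10, SE 0.075, adjusted p = 0.269).

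The H3K9 and H3K36 demethylases of the JmjC type moved in both directions. Of 8 tested, 2 were lower (25.0%) and 1 higher (12.5%), against 24.2% and 22.7% of all tested genes. KDM3A, which removes mono- and dimethylation from H3K9, was at 44.2, 47.7 and 43.5 CPM in control and 36.5, 35.3 and 36.2 CPM in PELP1-KD cells. It fell by 20.4% without overlap (log2FC -0.33, SE 0.056, adjusted p = 6.75e-05), the lowest estimate among the enzymes. Its paralog KDM3B, with 101 to 108 CPM in control and 87.6 to 90.2 CPM in PELP1-KD cells, fell by 14.1% (log2FC -0.22, adjusted p = 0.000241). KDM4B, which acts on trimethylated H3K9 and H3K36, was at 31.6, 35.1 and 35.3 CPM in control and 40.7, 39.7 and 38.9 CPM in PELP1-KD cells. It rose by 16.7% (log2FC 0.22, SE 0.059, adjusted p = 0.00409), with every PELP1-KD replicate above the controls. The H3K36 demethylase KDM2A, the highest of these genes per length, was at 160.1, 152 and 153 CPM in control and 146, 152 and 152 CPM in PELP1-KD cells, and the groups overlapped (log2FC -0.05, adjusted p = 0.326). KDM2B, KDM4A, KDM4C and KDM4D did not pass either, with adjusted p from 0.126 for KDM4A to 0.997 for KDM2B. KDM4C and KDM4D were at 0.51 and 0.46 RPKM (CPM divided by exon length in kilobases), the lowest levels of the tested enzymes, so that only large differences could be detected.

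**Figure D2:**
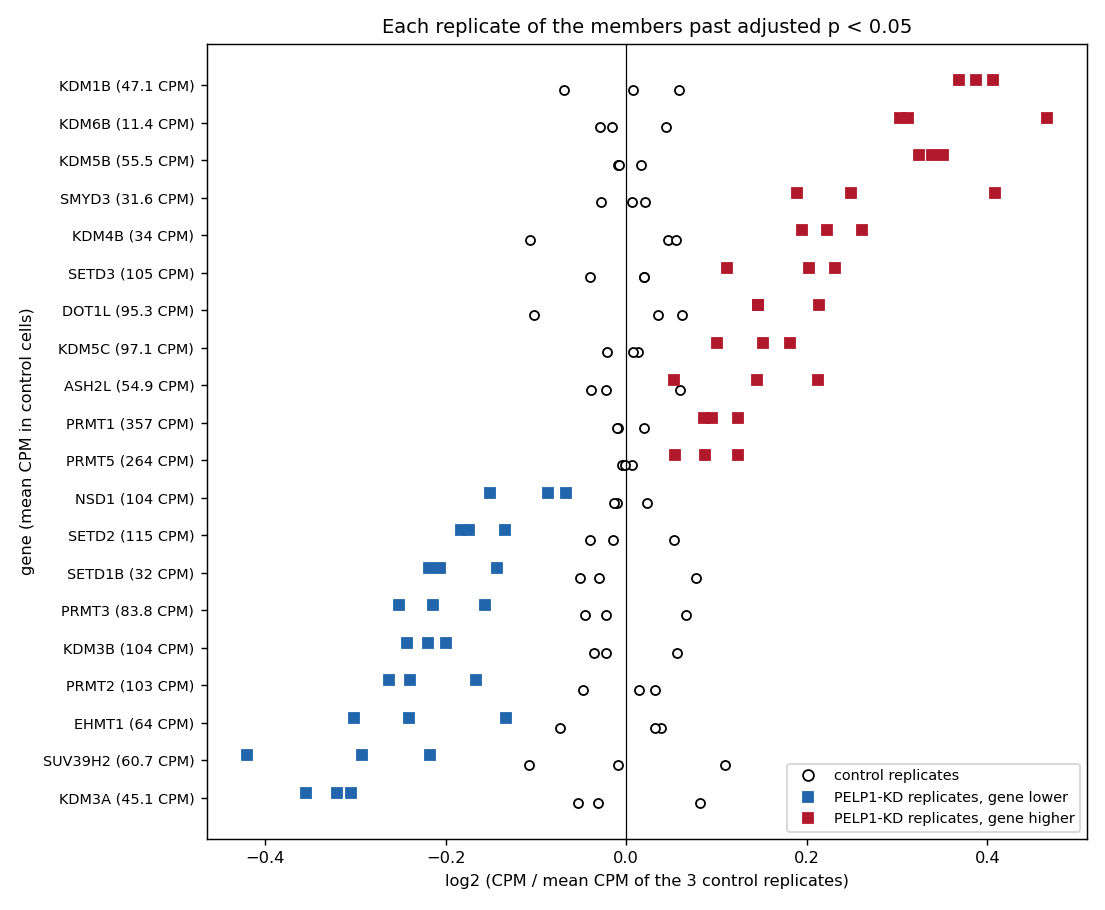
CPM in each replicate relative to the control mean, on a log2 x axis, for the 20 enzymes called at an adjusted p below 0.05. Circles are control and squares PELP1-KD replicates, and genes are ordered by log2FC along the y axis. The groups are apart for each of them except ASH2L, where control replicate 2 (57.2 CPM) lies above PELP1-KD replicate 2 (57.0 CPM).

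On the methyltransferase side, 5 of the 21 tested lysine methyltransferases and SET-domain proteins were lower and 3 higher. The lower share, 23.8%, was close to the 24.2% of all genes. The higher share, 14.3%, was below the 22.7% of all genes, a difference that was not tested. By library totals 3 were lower and 3 higher, beside 2418 lower and 3817 higher of 12796 genes. In the H3K4 group, SETD1B, a catalytic subunit of the COMPASS complex, was at 30.9, 31.4 and 33.8 CPM in control and 27.8, 29 and 27.5 CPM in PELP1-KD cells. It fell by 12.2% without overlap (log2FC -0.19, SE 0.062, adjusted p = 0.0164), and was called in 9 of 13 alternative fits. Its paralog SETD1A (log2FC -0.04, adjusted p = 0.571) and SETD7, which monomethylates H3K4 (log2FC -0.06, adjusted p = 0.185), did not pass.

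The core subunits shared by the H3K4 methyltransferases changed little. ASH2L was at 53.5, 57.2 and 54.1 CPM in control and 60.7, 57.0 and 63.6 CPM in PELP1-KD cells. The groups overlapped, and ASH2L passed narrowly (log2FC 0.14, SE 0.053, adjusted p = 0.0403), being called in 8 of 13 alternative fits. WDR5, which reads and presents the H3 tail, was at 197, 202 and 194 CPM in control and 200.2, 204 and 202 CPM in PELP1-KD cells, overlapping (log2FC 0.03, SE 0.033, adjusted p = 0.49). RBBP5 was at 52.2, 49.5 and 52.9 CPM in control and 54.8, 53.2 and 54.8 CPM in PELP1-KD cells. Its groups did not overlap, but RBBP5 did not pass (log2FC 0.08, SE 0.050, adjusted p = 0.216) except when scaled by library totals (log2FC 0.13, adjusted p = 0.0412).

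Of the H3K9 methyltransferases, 2 of 4 fell and none was called higher, where 24.2% of all tested genes were lower and 22.7% higher. SUV39H2, which trimethylates H3K9 in heterochromatin, was at 60.3, 56.3 and 65.5 CPM in control and 52.2, 45.4 and 49.6 CPM in PELP1-KD cells. All PELP1-KD replicates were below the controls, and SUV39H2 fell by 19.1% (log2FC -0.31, SE 0.061, adjusted p = 0.000362). EHMT1 (GLP), which dimethylates H3K9 as a dimer with EHMT2 (G9a), was at 60.8, 65.7 and 65.4 CPM in control and 54.1, 58.3 and 51.9 CPM in PELP1-KD cells. It fell by 14.5% (log2FC -0.23, SE 0.054, adjusted p = 0.00168). EHMT2 (log2FC 0.04, adjusted p = 0.5) and SUV39H1 (log2FC -0.07, adjusted p = 0.314) did not pass. The H3K27 methyltransferase EZH2, the catalytic subunit of PRC2, was at 147, 138 and 135 CPM in control and 127, 136 and 132 CPM in PELP1-KD cells. The groups overlapped and neither EZH2 (log2FC -0.09, SE 0.041, adjusted p = 0.0931) nor its paralog EZH1 (log2FC -0.09, adjusted p = 0.22) passed.

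For H3K36 and H3K79, SETD2, which adds the third methyl group to H3K36, was at 119, 112 and 114 CPM in control and 105, 102 and 101 CPM in PELP1-KD cells. It fell by 10.7% without overlap (log2FC -0.16, SE 0.041, adjusted p = 0.00263). NSD1, which dimethylates H3K36, with 103 to 106 CPM in control and 94.0 to 99.6 CPM in PELP1-KD cells, fell by 6.82% at the edge of the threshold (log2FC -0.10, adjusted p = 0.0485) and was called in 4 of 13 alternative fits. In the other direction, DOT1L, the H3K79 methyltransferase, was at 88.8, 97.6 and 99.4 CPM in control and 105, 110.5 and 105 CPM in PELP1-KD cells. It rose by 12.3% without overlap (log2FC 0.17, SE 0.046, adjusted p = 0.0053). SETD8, the H4K20 monomethyltransferase now named KMT5A, did not pass (log2FC 0.06, adjusted p = 0.333).

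Among SMYD and other SET-domain proteins 2 of 8 tested genes rose (25.0%), against 22.7% of all tested genes, and none was called lower. SMYD3, a lysine methyltransferase with cytoplasmic substrates such as MAP3K2, was at 32.0, 31.7 and 31.0 CPM in control and 36, 37.5 and 41.9 CPM in PELP1-KD cells. It rose by 22.1% without overlap (log2FC 0.29, SE 0.063, adjusted p = 0.000845). SETD3, an actin histidine methyltransferase, lay between 102 and 106 CPM in control and between 113 and 123 CPM in PELP1-KD cells (log2FC 0.18, adjusted p = 0.00138). SMYD5, the highest of the group per length, was at 81.8, 85.7 and 83.0 CPM in control and 83.3, 89.3 and 82.3 CPM in PELP1-KD cells, with overlap (log2FC 0.02, adjusted p = 0.685). SMYD2, SMYD4, SETD4, SETD5 and SETD6 did not pass, with log2FC from -0.14 for SETD6 to 0.03 for SMYD4.

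The arginine methyltransferases held the most highly expressed enzymes. Of 8 tested, 2 fell and 2 rose (25.0% each), against 24.2% and 22.7% of all tested genes. PRMT5, which makes symmetric dimethylarginine, had the highest level per length, at 76.3 ± 0.289 RPKM in control and 81.1 ± 1.98 RPKM in PELP1-KD cells (SD, n = 3 each). PRMT1, which makes most of the asymmetric dimethylarginine, followed at 74.5 ± 0.903 and 80.0 ± 1.11 RPKM, so that the levels of PRMT1 and PRMT5 in PELP1-KD cells lay within their spread. Next were WDR5, at 54.5 ± 0.999 RPKM in control cells, and EZH2, at 31.0 ± 1.33 RPKM.

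**Figure D3:**
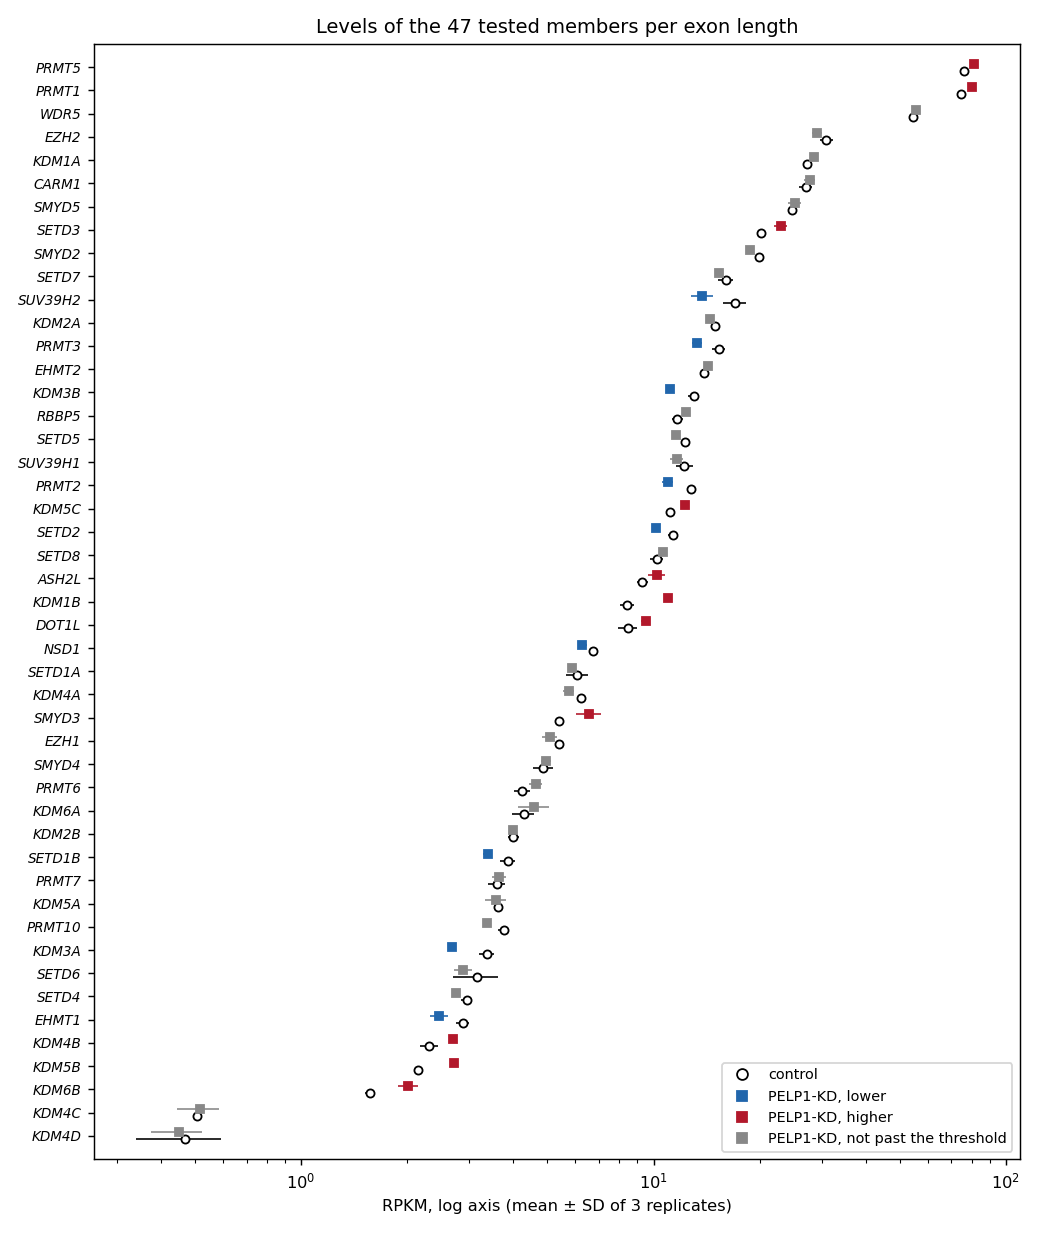
Level of each of the 47 tested enzymes in RPKM (log10 x axis), in descending order of the mean over both groups; circles are control means and squares PELP1-KD means, with bars of 1 SD over 3 replicates. Levels run from about 78.7 RPKM for PRMT5 to 0.46 RPKM for KDM4D, and the distance between the groups of a gene is small beside the range between genes.

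In CPM, PRMT1 was at 355, 362 and 355 in control and 379, 389 and 382 in PELP1-KD cells. It rose by 7.28% without overlap (log2FC 0.10, SE 0.029, adjusted p = 0.00736), a change that was small but larger than the spread between replicates. PRMT5 was at 266, 264 and 264 CPM in control and 281, 288 and 275 CPM in PELP1-KD cells. It also rose without overlap (log2FC 0.09, SE 0.032, adjusted p = 0.026), though in 9 of 13 alternative fits only. PRMT2, a coactivator of nuclear receptors, was at 99.5, 105 and 104 CPM in control and 87.2, 91.6 and 85.8 CPM in PELP1-KD cells. All PELP1-KD replicates were lower, and PRMT2 fell by 14.4% (log2FC -0.22, SE 0.043, adjusted p = 0.000263). PRMT3, which methylates a protein of the small ribosomal subunit, was at 81.2 to 87.7 CPM in control and 70.4 to 75.2 CPM in PELP1-KD cells (log2FC -0.20, adjusted p = 0.00125). PRMT6, which methylates H3R2, was at 18.7, 17.3 and 19.1 CPM in control and 19.8, 21.0 and 19.3 CPM in PELP1-KD cells. Its groups did not overlap, but the test was not passed (log2FC 0.13, SE 0.074, adjusted p = 0.16). The coactivator CARM1 (log2FC 0.03), PRMT7 (log2FC 0.02) and PRMT10, now named PRMT9 (log2FC -0.16, adjusted p = 0.106), did not pass.

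Paralogs of the same activity were compared within each replicate as the log2 ratio of their CPM, in 8 pairs chosen after their values had been seen. The ratio of KDM5B to KDM5A was higher by 0.36 in PELP1-KD cells, that of KDM1B to KDM1A by 0.32 and that of KDM6B to KDM6A by 0.26. KDM1B made up 23.6% ± 0.576 of the summed RPKM of KDM1A and KDM1B in control cells and 27.8% ± 0.315 in PELP1-KD cells (SD, n = 3 each). The ratio of EHMT1 to EHMT2 differed by -0.26 and that of SETD1B to SETD1A by -0.15. In these 5 pairs the control and PELP1-KD replicates did not overlap. Each gave p = 0.1 in a two-sided exact permutation test, the smallest possible (adjusted p = 0.16 over 8 pairs). Of all tested genes taken singly, 55.0% did not overlap, and no such share was computed for ratios of genes. The ratios of SUV39H2 to SUV39H1 (-0.23) and of KDM3A to KDM3B (-0.11) overlapped between groups (exact permutation p = 0.2, adjusted p = 0.229). The ratio of EZH1 to EZH2 differed by -0.0025 (exact permutation p = 1).

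The E-box CACGTG, a palindrome bound by Myc family proteins among others, was searched in the same promoter windows. It occurred in 8 of the 44 enzyme promoters (18.2%), against 6.49% of 27305 promoters and 8.96% of the 8933 promoters of tested genes. By call, it was found in 2 of 8 lower, 1 of 9 higher and 5 of 27 uncalled enzymes. The 3 called genes that held it are shown by 60 bases around the motif, from RefSeq on GRCh38.p14, with CACGTG in capitals.
KDM4B, chr19:4968863-4968922, strand +: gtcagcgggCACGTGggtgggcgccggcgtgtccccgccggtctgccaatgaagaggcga
NSD1, chr5:177131738-177131797, strand +: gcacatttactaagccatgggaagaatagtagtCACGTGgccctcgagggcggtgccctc
PRMT3, chr11:20387502-20387561, strand +: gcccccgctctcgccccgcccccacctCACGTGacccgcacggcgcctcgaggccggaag
The motif began 241 bases upstream of the start in KDM4B, 27 bases upstream in NSD1 and 187 bases upstream in PRMT3. KDM4B rose while NSD1 and PRMT3 fell, so the promoters with these letters were not on a single side. Median GC content of the 250 bases was 65.0% for the enzymes and 65.2% for tested genes. A match of letters is a description of the sequence and not a measured site.

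Related genes outside the family rule were read from the same fit, as 85 genes in 7 lists. Of the 82 tested, 34 were lower (41.5%, against 24.2% of all tested genes) and 10 higher (12.2%, against 22.7%), and the median log2FC was -0.08. The lists were chosen with earlier results known, and their counts were not tested against these shares. By library totals alone the counts were 27 and 15 and the median was -0.03. Over all tested genes the counts moved as well, from 3103 and 2904 to 2418 and 3817, and the median from 0.00 to 0.05. Among 22 tested methylation enzymes that the rule missed, 7 were lower and 4 higher, and by library totals 4 were lower and 5 higher. The balance over all tested genes turned in the same direction, and the median of this list went from -0.055 to -0.006. WHSC1 (NSD2), an H3K36 dimethyltransferase, was at 567, 567 and 558 CPM in control and 432, 439 and 437 CPM in PELP1-KD cells. It fell by 22.7% (log2FC -0.37, SE 0.027, adjusted p = 7.28e-10), an estimate below that of each of the 47 enzymes, from a higher CPM than any of them had. The JmjC protein PHF2 fell from 60.3, 62.6 and 65.3 CPM to 44.2, 42.8 and 43.6 CPM (log2FC -0.53, adjusted p = 4.23e-08), and JMJD1C, related to KDM3A and KDM3B, had a log2FC of -0.37 (adjusted p = 1.89e-06). Of the older MLL names, MLL (now KMT2A) fell slightly (log2FC -0.13, adjusted p = 0.0319) and MLL2 to MLL5 did not pass. The names MLL2 and MLL4 have each been used for KMT2B and KMT2D, which could not be told apart here.

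**Figure D4:**
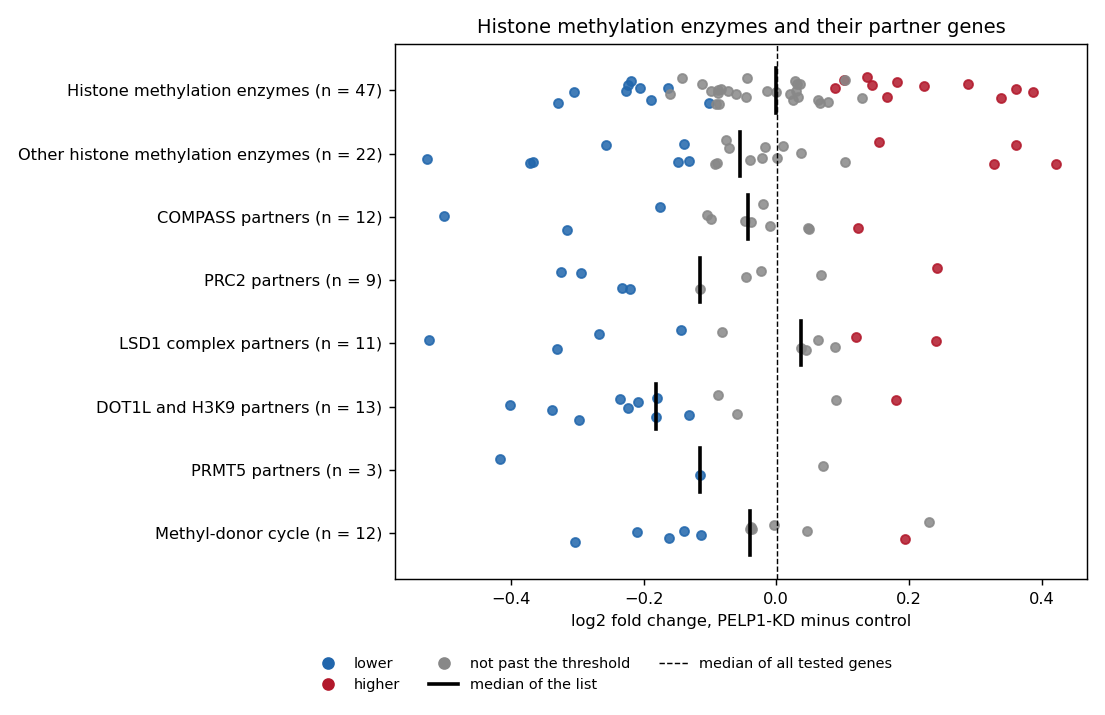
Log2 fold change of PELP1-KD against control cells (x axis) for the tested genes of 7 lists of related genes and, in the first row, the 47 enzymes; points are genes coloured by call and vertical marks are list medians. Most points of the list of DOT1L and H3K9 partners lie to the left of 0, with a median of -0.18.

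Partners of the H3K9 enzymes and of DOT1L were the list with the largest share of lower genes. Of 13 tested, 9 were lower (69.2%) and 1 higher (7.69%), against 24.2% and 22.7% of all tested genes, with a median log2FC of -0.18. By library totals 8 were lower and 1 higher, beside 2418 lower and 3817 higher of 12796 genes. The heterochromatin proteins CBX3 (log2FC -0.30, adjusted p = 4.53e-05) and CBX5 (log2FC -0.24, adjusted p = 5.84e-05), which bind methylated H3K9, and AFF1 of the elongation complexes (log2FC -0.34, adjusted p = 1.52e-05) had the lowest p. CBX3 has 9 named pseudogenes in the annotation, so its counts are less certain. Among the other related genes named here, BOD1 has 2 and PHF2, SUZ12, CBX5 and CLNS1A have 1 each. In PRC2, 4 of 9 partners were lower (44.4%) and 1 higher (11.1%), and by library totals 4 were lower and 2 higher. SUZ12, an essential subunit, was at 211, 194 and 193 CPM in control and 166, 156 and 166 CPM in PELP1-KD cells. It fell by 18.4% (log2FC -0.29, SE 0.041, adjusted p = 5.73e-06), beside the uncalled EZH2 and EED (adjusted p = 0.0591). The PRC2-associated Polycomb-like proteins went in opposite directions, PHF19 with a log2FC of -0.22 (adjusted p = 5.81e-05) and MTF2 with a log2FC of 0.24 (adjusted p = 0.000222).

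Partners of KDM1A showed 4 lower (36.4%) and 2 higher (18.2%) genes of 11 tested, against 24.2% and 22.7% of all tested genes. By library totals 3 were lower and 2 higher. RCOR1 (CoREST), which ties KDM1A to nucleosomes, was at 94.2, 94.2 and 84.2 CPM in control and 74.1, 70.2 and 72.7 CPM in PELP1-KD cells. It fell by 20.4% without overlap (log2FC -0.33, SE 0.050, adjusted p = 1.51e-05). KIAA0182 (GSE1) had a log2FC of -0.52 (adjusted p = 1.09e-05) and HMG20B a log2FC of 0.24 (adjusted p = 0.000227). Among the COMPASS partners 3 of 12 were lower (25.0%) and 1 higher, also by library totals, and BOD1 (log2FC -0.50, adjusted p = 5.15e-08), PSIP1 (log2FC -0.32, adjusted p = 2.25e-05) and NCOA6 (log2FC -0.18, adjusted p = 0.00242) had the lowest p. Of the 3 PRMT5 partners, CLNS1A (pICln), which brings Sm proteins to PRMT5, was at 119.5, 112 and 114 CPM in control and 88.5, 82.0 and 87.9 CPM in PELP1-KD cells. It fell by 25.1% (log2FC -0.42, SE 0.044, adjusted p = 1.72e-07), and WDR77, the obligate partner of PRMT5, had a log2FC of -0.12 (adjusted p = 0.0157). The WDR77 call was lost by library totals (log2FC -0.07, adjusted p = 0.147) and without PELP1-KD replicate 2 (adjusted p = 0.0599).

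The enzymes draw on S-adenosylmethionine, and 5 of 12 tested genes of the methyl-donor cycle and its polyamine branch were lower and 1 higher. With TMM scaling the shares over all tested genes were 24.2% lower and 22.7% higher. By library totals 4 of the 12 were lower and 3 higher, beside 2418 lower and 3817 higher of 12796 genes. MAT2A, which makes S-adenosylmethionine, was at 260.0, 254 and 258 CPM in control and 232, 233 and 235 CPM in PELP1-KD cells. It fell by 9.24% without overlap (log2FC -0.14, SE 0.031, adjusted p = 0.00102). SMS, the spermine synthase, had a log2FC of -0.30 (adjusted p = 1.97e-06) and MTRR, which reactivates methionine synthase, a log2FC of -0.21 (adjusted p = 0.000372). MTAP, which clears the by-product methylthioadenosine, had no count in any replicate.

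Some values are less certain because of how reads map. Named pseudogenes exist for 6 of the 47 tested enzymes, among them the called ASH2L, PRMT1 and PRMT5, whose reads may be split. Exons of 19 of the 47 overlap a gene on the opposite strand, 7 of them called (ASH2L, DOT1L, EHMT1, NSD1, PRMT1, PRMT5 and SUV39H2). The library kit keeps strand, but the strand setting of the counting is not given in the sources used here. Exons of the called EHMT1 and PRMT1, and of KDM4A and KDM4C, also overlap a gene on the same strand, which strand cannot separate.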

How the data were processed

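RNA-seq was measured in 3 control and 3 PELP1-KD samples of MDA-MB-231 cells, grouped by the treatment in the labels. The authors deposited whole-number read counts per gene symbol for each replicate, without normalization, from single reads of 50 bases of TruSeq stranded mRNA libraries. The submitters' processing notes name bcl2fastq, TopHat2, SAMtools, HTSeq and the build hg19, and versions and the strand setting are not given in the sources used here. Rows that name no gene (reads without a feature, 7.64% to 8.19% of each table's total, ambiguous or not unique) were left out. No molecular identifiers were used, so reads may be PCR copies, and depth limits cover counting error only.

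Counts were filtered with filterByExpr (minimum 10 counts), scaled by TMM and tested on all genes with the quasi-likelihood test of edgeR 4.0.16 in R 4.3.3, adjusting p by Benjamini-Hochberg across all 12796 genes that passed, at a threshold of 0.05. The SE of a log2FC was its size over the root of the F statistic. RPKM used exon lengths of GENCODE release 29 (48 enzymes by their symbol and 2 by a RefSeq synonym). Alternatives were other scaling, filters, DESeq2 1.42.0, voom in limma 3.58.1, a replicate block and leaving out each replicate. Promoters came from RefSeq (GRCh38.p14), with an entry for 44 of the 47 tested enzymes and none for ASH2L, DOT1L and SETD1B. No coordinate of the hg19 counts was used.

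The enzymes and lists were chosen with earlier results of these data known. Values in every replicate were given for the enzyme with the lowest p in each direction of each role, the highest by RPKM in each role, PELP1 and its known partners KDM1A, PRMT6, WDR5, RBBP5 and ASH2L, and EZH2, and values for up to 3 genes with the lowest p in each related list. EHMT1 and further genes given by range or estimate were added after their values had been seen.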

Additional observations from a re-analysis of the deposited data

How the results depend on the processing

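The numbers of lower and higher enzymes stayed within 1.5 times the reported 9 and 11 in all 13 alternative fits, and 16 of the 20 called enzymes passed in every one. The exceptions were ASH2L, NSD1, PRMT5 and SETD1B. The NSD1 call was lost without control replicate 2 or 3 or any PELP1-KD replicate (adjusted p from 0.0613 to 0.163), and that of ASH2L without control replicate 1 or 3 or PELP1-KD replicate 1 or 3 (0.0727 to 0.216). PRMT5 lost its call without control replicate 2 or 3 or PELP1-KD replicate 1 or 2 (0.0564 to 0.0916), and SETD1B without control replicate 3 or PELP1-KD replicate 1 or 3 (0.0549 to 0.0851). SETD6 passed without control replicate 1 (adjusted p = 0.0292), and WDR77 did not without PELP1-KD replicate 2 (0.0599) or by library totals (0.147). By library totals NSD1 (0.302) and SETD1B (0.0700) lost their calls, while KDM1A and RBBP5 passed. NSD1 did not pass with RLE size factors (0.0523), without a filter (0.0648) or in DESeq2 (0.0901), where ASH2L did not pass either (0.0679). DESeq2 called 8 lower and 10 higher enzymes, and 2699 lower and 2391 higher genes. Leaving out each replicate in turn gave 7 to 10 lower and 9 to 10 higher enzymes, 2723 to 3066 lower and 2459 to 2837 higher genes, and a log2FC of PELP1 from -0.99 to -0.94. No enzyme passed with a log2FC beyond 1 in any fit.

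Same-numbered replicates deviated little together over the tested genes, with correlations of 0.039, 0.065 and -0.078. Such correlations cannot show whether these replicates were handled together. With the replicate block, 9 enzymes were lower and 11 higher, 3335 genes were lower and 3140 higher, and the log2FC of PELP1 was -0.97.

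Signs changed only for enzymes that had not passed. By library totals, KDM2A was at 0.0036, KDM5A at 0.036 and SETD1A at 0.0059. KDM2B was at -0.00020 with voom and at -0.0025 with at least 10 counts in every replicate. Over the fits without a replicate, log2FC ran from -0.023 to 0.025 for KDM2B, -0.042 to 0.043 for KDM5A, -0.022 to 0.049 for PRMT7, -0.26 to 0.14 for KDM4D, -0.028 to 0.072 for SMYD4, -0.075 to 0.015 for SETD1A, -0.012 to 0.048 for SMYD5 and -0.064 to 0.13 for KDM4C. The cause was not tested. With 3 replicates a group, and a biological coefficient of variation of 3.52%, estimates for KDM4C and KDM4D were limited by depth.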
